A study of Mus musculus with 6 samples.

Results

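Cytosolic ribosomal protein transcripts were measured in the ovary of newborn C57Bl/6J mice. Members were the probes whose annotation began with a cytosolic ribosomal protein name, without kinases and mitochondrial proteins, and the probe with the highest mean intensity stood for each name. The rule gave 32 members, 19 of the large subunit, 12 of the small subunit and 1 of the stalk, from 53 of the 8272 probes on the arrays, which carry 4706 different gene names. Of the 32 names, 16 had a single probe and 16 had more, with 21 further probes in all. In the RefSeq gene table, 30 members matched by current symbol and 2 by an older one (Rps3a, now Rps3a1, and Rpl44, now Rpl36a).

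Total RNA of whole ovaries was compared on 2-colour spotted cDNA arrays, which carry complementary DNA clones on glass. There were 3 arrays of day 2 ovaries and 3 of day 4 ovaries, each against RNA of ovaries from pups less than a day old (day 0). All groups were of the same strain, with no treatment named, and the labels call the 3 arrays of an age biological replicates without giving the number of pups behind each RNA. Per the file headers, 6 later RNAs were set against 5 day 0 RNAs, and array 3 of both ages shared its day 0 RNA. The sample labels name days 0, 2 and 4, whereas the design text does not give a collection time for day 4, and the labels were followed. The later day was labelled with Cy5 and day 0 with Cy3 on every array, so that a dye effect of a probe and a change against day 0 cannot be told apart. Each value is a log2 ratio of the later day over day 0, where 1 unit is a 2-fold difference, and values below 0 are lower than at day 0. In whole ovaries, fewer cells of a type and less RNA per cell cannot be told apart.

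The cytosolic ribosome translates nuclear-encoded mRNA. Its small subunit reads the mRNA, its large subunit joins the amino acids, and the stalk on the large subunit brings in the translation factors. Ribosomal protein mRNAs are among the most abundant of a cell, and in mammals many of them begin with a run of pyrimidines, through which their translation follows growth signals. Around birth, mouse oocytes become enclosed in primordial follicles, and the first of these start to grow.

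Promoters were available from RefSeq (build GRCm38.p6) for 22 members. To show how the genes' start sites look, 6 of them are printed from 70 bases before to 30 bases after the start, 5′ to 3′ on the gene's strand, for members that lie at different places in the results. Rpl15 and Rpl18 were below day 0 in the day 4 mean, Rpl5 and Rps2 above it, Rpl26 was among the most variable members and Rps27 the least. These places are those of the brightest probes, and the second Rps2 probe had a day 4 mean of 0.0059. Capitals mark the motifs CTTTCC, which is pyrimidine-rich, and CCGGAAG, the core of the site bound by ETS-family factors. Both were searched on both strands, and neither shares a base with the other in these windows.

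Rpl15: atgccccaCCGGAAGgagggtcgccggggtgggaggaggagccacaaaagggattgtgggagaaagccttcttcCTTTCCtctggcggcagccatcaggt
Rpl18: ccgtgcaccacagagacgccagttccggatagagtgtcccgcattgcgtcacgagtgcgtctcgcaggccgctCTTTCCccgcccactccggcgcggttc
Rpl5: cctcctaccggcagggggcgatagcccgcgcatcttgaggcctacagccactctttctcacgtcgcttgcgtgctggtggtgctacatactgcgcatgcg
Rps2: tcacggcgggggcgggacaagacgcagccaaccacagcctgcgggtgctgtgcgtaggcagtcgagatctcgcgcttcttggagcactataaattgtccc
Rpl26: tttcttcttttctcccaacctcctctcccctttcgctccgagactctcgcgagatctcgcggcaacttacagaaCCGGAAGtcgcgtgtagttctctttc
Rps27: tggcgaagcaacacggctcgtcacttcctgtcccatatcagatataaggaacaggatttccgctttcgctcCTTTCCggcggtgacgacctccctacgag

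The window of Rpl15 lies at chr14:18270957-18271056 on the minus strand, that of Rpl18 at chr7:45718001-45718100 on the plus strand, and that of Rpl5 at chr5:107900458-107900557 on the plus strand. The window of Rps2 lies at chr17:24719993-24720092 on the plus strand, that of Rpl26 at chr11:68901496-68901595 on the plus strand, and that of Rps27 at chr3:90213619-90213718 on the minus strand. Over the longer RefSeq promoters of 250 bases before to 50 after the start, CTTTCC was found in 12 of the 22 members (54.5%) and in 26.3% of all 27025 promoters. CCGGAAG was found in 10 of the 22 (45.5%) and in 9.12% of all. These are matches of letters and were not tied to the array values.

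The members were among the brightest spots on the arrays. Their median mean log2 intensity was 14.46, against 9.66 for all probes, and 29 of 32 were at 13 or above, as were 7.89% of all probes. The exceptions were Rps27l at 10.40, Rpl27 at 10.16 and Rps27 at 8.25, the last of which lay under the 25th percentile of all probes (8.63). Intensity depends on the clone as well as on the transcript and was not read as a level of expression.

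On day 4 array 1, 28 of the 32 members had no deposited value, and the members left were Rpl18, Rpl27, Rps27 and Rps27l. Missing values there went with brightness, here the mean log2 intensity over day 2 arrays 1 to 3 and day 4 array 2. None of the probes under 11 lacked a value, against 72.3% between 13 and 14, 94.3% between 14 and 15 and 100% above 15. The highest intensity left on that array was 14.67, against 15.33 to 15.59 on the others. On day 4 array 3, 12 members lacked a value, beside 31.9% of all probes, at a similar share in every brightness class. As a result 1 member had 3 values at day 4, 22 had 2 and 9 had 1. Those 9, among them Rpl6, Rpl12, Rpl26, Rpl29, Rpl41, Rps18, Rps26 and Rps27a, could not be tested, and 23 members were.

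**Figure D1:**
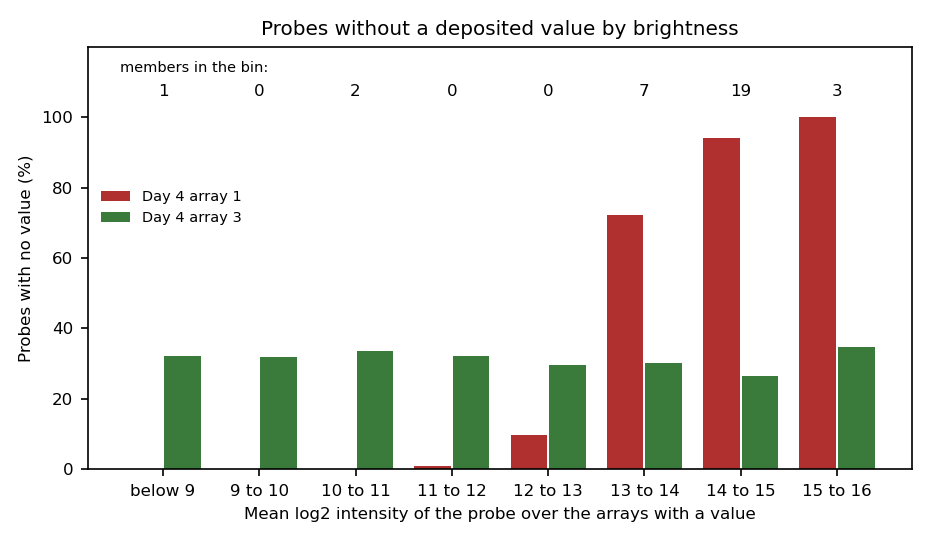
Bars give the percentage of probes with no deposited value on day 4 array 1 (red) and day 4 array 3 (green). Classes are of the probe's mean log2 intensity over the arrays without missing values, day 2 arrays 1 to 3 and day 4 array 2. The numbers on top count the members in each class. On array 1 missing values rise to 100% in the brightest class, and 29 members lie in the 3 brightest classes. On array 3 the share stays between 26.6% and 34.8%.

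The first 2 arrays of day 2 ran against each other. Over all 8272 probes their log2 ratios correlated at r = -0.68, although both are labelled as day 2 in Cy5 over day 0 in Cy3, and over the 32 members at r = -0.53. Of the members, 29 had opposite signs on these arrays, as had 74.9% of all probes, and 25 were above 0 on array 1 and below 0 on array 2, as were 36.5% of all probes. The direction of day 2 is therefore not settled, and fitted day 2 values are also given with the sign of array 1 or of array 2 turned.

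As a set, the members sat apart from the bulk of the probes on most arrays, but not on one side. On day 2 array 1 their median log2 ratio was 0.31, with 26 members above 0 and 6 below, where 50.3% of all probes were below 0. On day 2 array 2 the median was -0.96 with 27 below 0 (all probes 48.3%), and on day 2 array 3 it was -0.39 with 24 below 0 (all probes 50.4%). Day 4 array 2 had a median of -0.40 with 26 of 32 below 0 (all probes 48.1%), and day 4 array 3 had -0.063 with 12 of 20 below 0 (all probes 48.0%). The 4 members with a value on day 4 array 1 had a median of -0.68, and 3 of them were below 0 (all probes 48.8%).

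**Figure D2:**
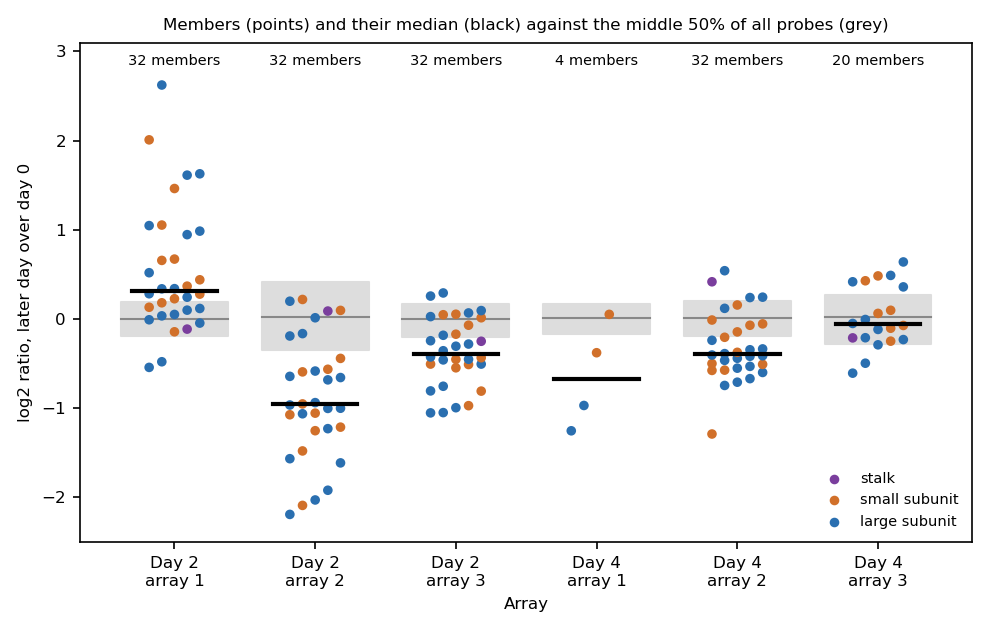
Each point is a member's log2 ratio of the later day over day 0 on one array, coloured by subunit. The black bar is the members' median, and the grey band and line are the middle 50% and the median of all probes. The members lie mostly above the band on day 2 array 1, and mostly below it on day 2 array 2, day 2 array 3 and day 4 array 2.

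Other probes of like brightness were set beside them, since brightness and the set go together. The 108 non-member probes at least as bright as the median member had medians of 0.048, -0.23 and -0.35 on day 2 arrays 1, 2 and 3, and of 0.18 and -0.083 on day 4 arrays 2 and 3. The members were lower than these by the most on day 2 array 2 and day 4 array 2, and lay close to them on day 2 array 3 and day 4 array 3. The part of brightness in the members' values was not tested.

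Rplp0, the scaffold of the stalk, read -0.12, 0.087 and -0.25 on the day 2 arrays and 0.42 and -0.21 on day 4 arrays 2 and 3. Its values lay on both sides of 0 at both ages. Its second probe gave -0.72, 0.37 and -0.85, then 0.27 and -0.34, with the same sign as the first on all 5 arrays.

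Among small subunit members, Rps2 and Rps3 line the channel through which mRNA enters. Rps2 read -0.15, 0.095 and -0.44 at day 2 and -0.072 and 0.48 on day 4 arrays 2 and 3. The second Rps2 probe read 0.034, -0.68 and 0.092 at day 2 and -0.44 and 0.45 on those day 4 arrays. It had the opposite sign to the first on every day 2 array and the same sign on both day 4 arrays. Rps3 read 2.01, -0.44 and -0.55 at day 2 and 0.16 and -0.25 at day 4. For Rps3, day 2 array 1 was far above the other 4 arrays, and both genes had values on either side of 0 at both ages.

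Rps15, needed for the export of the small subunit from the nucleus, read 0.44, -1.06 and -0.072 at day 2 and -1.29 and 0.096 on day 4 arrays 2 and 3. It was the lowest of all members on day 4 array 2, and array 2 was the low one at both ages. Its 2 other probes showed the same split, with -2.32 and -2.12 on day 2 array 2, -1.26 and -0.99 on day 4 array 2, and values above 0 on the other 3 arrays with a value.

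Rps27 and Rps27l are paralogs, of which Rps27l is known as a target of p53. Rps27 read 0.13, 0.22 and 0.046 at day 2 and 0.050 and -0.15 on day 4 arrays 1 and 2, with the smallest SD of any member over the arrays (0.13). Rps27l read 1.46, -2.09 and 0.052 at day 2 and -0.38, -0.38 and 0.43 at day 4, with an SD of 1.17. The paralogs thus lay at opposite ends of the members' spread, and both probes were dim for the set. Rps27 at 8.25 was under the 25th percentile of all probes (8.63), and Rps27l at 10.4 was above their median (9.66). The part of brightness in this difference was not tested.

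Among large subunit members, Rpl3 and Rpl8 lie close to the catalytic centre. Rpl3 read -0.010, 0.20 and 0.29 at day 2 and 0.54 and 0.64 on day 4 arrays 2 and 3. Its day 4 values lay above all of its day 2 values, and it was the highest member on both of those day 4 arrays. Rpl8 read -0.48, 0.012 and -0.43 at day 2 and -0.35 and -0.052 at day 4.

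Rpl5 carries the 5S RNA into the ribosome and, when free, binds the p53 regulator Mdm2. It read 0.24, -0.66 and 0.066 at day 2 and 0.24 and 0.42 on day 4 arrays 2 and 3. Only Rpl3 and Rpl5 were above 0 on both of these day 4 arrays, where 31.5% of all probes were. The 3 other Rpl5 probes read 0.15 to 0.19 on day 4 array 2 and 0.44 to 0.50 on array 3.

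Rpl7, Rpl15, Rpl18 and Rpl27 are large subunit proteins of which Rpl7 and Rpl15 take part in early steps of its assembly. Rpl7 read 0.049, -1.003 and -1.05 at day 2 and -0.42 and -0.29 on day 4 arrays 2 and 3. Rpl15 read 0.28, -0.68 and -0.81 at day 2 and -0.47 and -0.50 at day 4. Both were below 0 on every array but day 2 array 1.

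Rpl18 read 0.12, -0.94 and -0.51 at day 2 and -0.97 and -0.55 on day 4 arrays 1 and 2. Rpl27 read 0.097, -0.59 and 0.093 at day 2 and -1.26 and -0.41 on day 4 arrays 1 and 2. Their lower day 4 value came in both cases from array 1, which holds no value for 28 members.

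Rpl12, at the base of the stalk, and Rpl29, a heparin-binding protein, were the only members below 0 on all 3 day 2 arrays, where 7.33% of all probes were. Rpl12 read -0.048, -0.65 and -0.36 there and -0.39 on day 4 array 2. Rpl29 read -0.54, -0.19 and -0.18 there and -0.44 on day 4 array 2, but its dimmer probe read 0.81, -1.15 and 0.27 at day 2. Rps27 was the only member above 0 on all 3, where 9.04% of all probes were.

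Rpl13a, which outside the ribosome represses translation of inflammatory mRNAs, read 0.033, -0.17 and -0.46 at day 2 and 0.24 and -0.23 on day 4 arrays 2 and 3. Rpl32 read 0.34, -1.62 and -0.28 at day 2 and -0.67 and -0.12 at day 4. Its lowest value was on day 2 array 2. Rpl30, whose yeast counterpart binds its own transcript, read 1.05, -1.92 and -0.997 at day 2 and -0.75 and -0.61 at day 4, and was the lowest member on day 4 array 3.

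With Rps27l, the members with the largest SDs over the arrays were Rpl23, Rpl26 and Rpl41. Rpl23, another Mdm2-binding protein, read 2.62, -1.23 and -0.31 at day 2 and -0.41 and -0.0074 on day 4 arrays 2 and 3. Rpl26, at the exit of the nascent chain, read 0.98, -2.19 and -0.25 at day 2 and -0.60 on day 4 array 2. Rpl41, a very short basic peptide, read 1.61, -0.97 and -0.76 at day 2 and 0.12 on day 4 array 2. Over all arrays with a value the SDs of these brightest probes of Rpl23, Rpl26 and Rpl41 were 1.46, 1.31 and 1.17. The second Rpl26 probe read 0.046, -1.19 and -0.36 at day 2 and -0.50 and -0.058 on day 4 arrays 2 and 3. The second Rpl41 probe read 0.97, -1.41 and -0.84 at day 2 and -0.43 on day 4 array 2.

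A further 9 members (Rpl6, Rpl27a, Rpl37a, Rpl44, Rps3a, Rps18, Rps20, Rps26 and Rps27a) are given by their range. All 9 were above 0 on day 2 array 1 (0.18 to 1.63) and below 0 on day 2 array 2 (-2.03 to -0.57). On day 2 array 3, 6 of them were below 0 (-1.06 to 0.26). On day 4 array 2 all 9 were below 0 (-0.71 to -0.013), and on day 4 array 3, 3 of the 5 with a value were (-0.21 to 0.49).

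**Figure D3:**
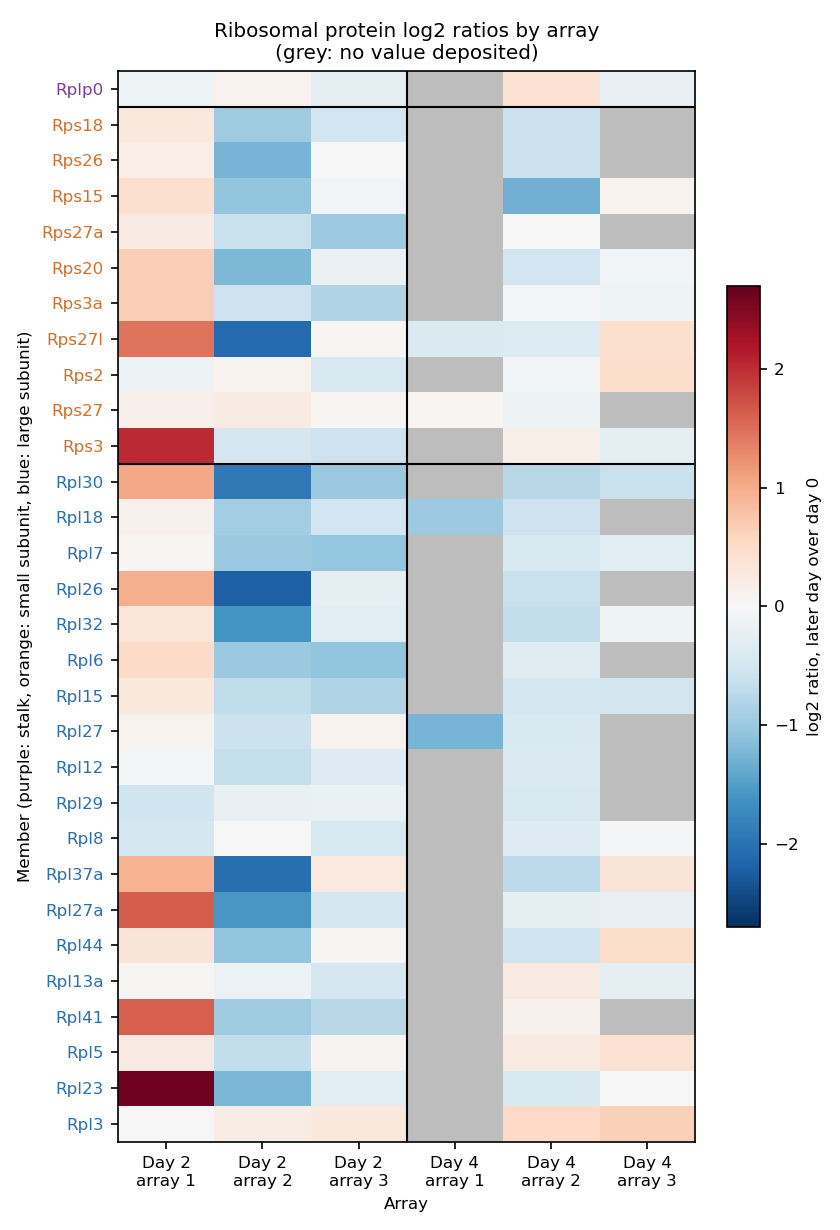
Rows are 30 of the 32 members, grouped into stalk, small and large subunit and ordered within a group by their mean, and columns are the 6 arrays. Colour gives the log2 ratio of the later day over day 0 (red above 0, blue below) and grey marks no value. Day 2 array 1 is mostly red and day 2 array 2 mostly blue, and all but 4 cells of day 4 array 1 are grey.

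Day 4 against day 0 covers the days on which follicles form and begin to grow. No member passed the test, limma at an adjusted p under 0.05, among 23 tested, where 0.479% of all probes did (39 of 8135, all higher). At an unadjusted p under 0.05, Rpl3 was higher and Rpl27 and Rpl18 were lower, 3 of 23, where 9.29% of all probes passed, 5.0% higher and 4.29% lower. The fitted mean of Rpl3 was 0.59 ± 0.14 (SE, n = 2 arrays), a 1.504-fold higher value, with limma's unadjusted p = 0.00895 and adjusted p = 0.27. Without the values that the authors' files flag, Rpl3 could not be tested. Rpl27 was 1.78-fold lower at -0.83 ± 0.28 (n = 2; unadjusted p = 0.032, adjusted p = 0.47, limma). Rpl18 was 1.697-fold lower at -0.76 ± 0.28 (n = 2; unadjusted p = 0.043, adjusted p = 0.51, limma).

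The next members by p-value at day 4 were Rpl15 at -0.48 ± 0.29, Rpl5 at 0.33 ± 0.25, Rps15 at -0.60 ± 0.48, Rpl7 at -0.36 ± 0.30, Rpl8 at -0.20 ± 0.18, Rpl30 at -0.68 ± 0.69 and Rps2 at 0.20 ± 0.21. Each rested on arrays 2 and 3, and the smallest unadjusted p among them was 0.16 (limma). The other probe of Rpl8 was above 0, at 0.14 ± 0.79. Further probes of Rpl15, Rpl5, Rps15, Rpl30 and Rps2 kept the sign of the brightest, with Rps2 at 0.0059 ± 0.30. Over all 32 members the median day 4 mean was -0.22, against -0.0013 for all probes, and 26 of 32 were below 0 where 50.2% of all probes were. The median was -0.34 for the 19 large subunit members, of which 15 were below 0. For the 12 small subunit members it was -0.095, and 11 were below 0. The difference between the subunits was not tested. The members' low median depended on array 2. Without array 2 it was -0.074, over the 23 members with another day 4 value, and without array 3 it was -0.40, over all 32. Of the 20 members with values on arrays 2 and 3, 9 were below 0 on both, where 27.4% of all probes were, 2 were above 0 on both, 9 had opposite signs, and 15 were lower on array 2.

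**Figure D4:**
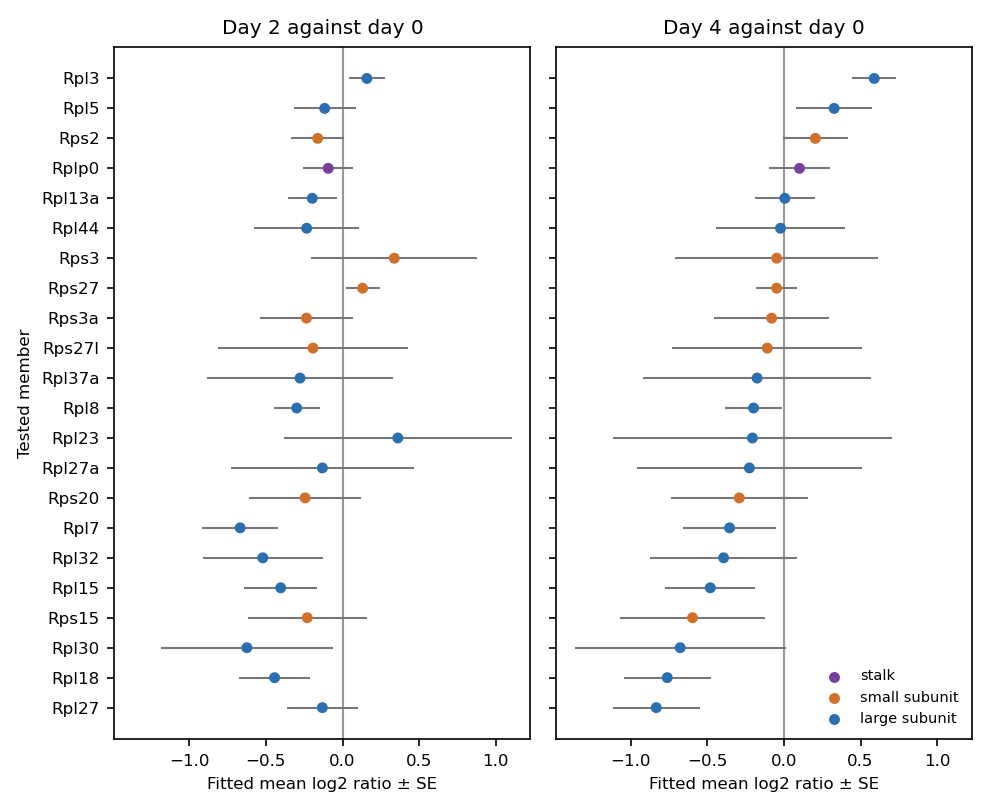
Points are the fitted mean log2 ratios of 22 of the 23 tested members against day 0 and bars are their SEs, at day 2 (left) and day 4 (right), ordered by the day 4 mean. Rpl3 lies highest and Rpl27 and Rpl18 lowest at day 4, and the bars of Rpl23, Rps3, Rps27l, Rpl37a and Rpl27a are among the longest.

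The 3 day 2 arrays against day 0 cover the start of follicle formation. No member passed the test (limma, adjusted p under 0.05; lowest adjusted p of a member 0.97), and 0.0% of all probes did. At an unadjusted p under 0.05, Rpl7 was lower, 1 of 23, where 2.84% of all probes passed. Its mean was -0.67 ± 0.25 (SE, n = 3 arrays), 1.59-fold lower (limma, unadjusted p = 0.043), and it became -0.70 with array 1 turned and 0.00040 with array 2 turned. The next members were Rpl8 at -0.30 ± 0.15, Rpl18 at -0.44 ± 0.23 and Rpl15 at -0.40 ± 0.24. With array 1 turned these were 0.022, -0.52 and -0.59, and with array 2 turned -0.31, 0.18 and 0.053. Rpl3 was 0.16 ± 0.12, and 0.17 and 0.027 with array 1 or 2 turned.

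Rpl32 at -0.52 ± 0.39 and Rpl30 at -0.62 ± 0.56 became -0.75 and -1.32 with array 1 turned, and 0.56 and 0.66 with array 2 turned. Rpl13a at -0.20 ± 0.16 and Rps2 at -0.16 ± 0.17 were below 0 with either array turned. For Rps2 this holds for its brightest probe only as far as shown. Its other probe read 0.034, -0.68 and 0.092, opposite in sign on each day 2 array. Rps27 at 0.13 ± 0.11 became 0.044 with array 1 turned and -0.014 with array 2 turned. The median of the 32 members was -0.24 as labelled, against 0.011 for all probes, with 28 below 0 where 47.9% of all probes were. It was -0.59 with array 1 turned, 0.29 with array 2 turned, -0.71 without array 1 and 0.057 without array 2. On array 3 alone, without both opposed arrays, it was -0.39. No member passed the test with either sign turned. With array 1 turned 12 of 23 members had an unadjusted p under 0.05, a larger share than the 1884 of 8135 probes. With array 2 turned these were 2 of 23 members, a smaller share than the 1120 of 8135 probes.

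Day 4 was set against day 2 through day 0, which removes a dye effect common to all arrays. No member and 0.0% of all probes passed the test (limma, adjusted p under 0.05). No member had an unadjusted p under 0.05, where 2.64% of all probes did. Rpl3 had the smallest p-value, with a log2 difference of 0.43 ± 0.18 (limma, unadjusted p = 0.066), and 0.42 or 0.56 with day 2 array 1 or 2 turned. Rpl27 differed by -0.70 ± 0.37, and by -0.64 or -1.09 with the signs turned. Rpl5 differed by 0.44 ± 0.32, and by 0.61 or 0.0047 with the signs turned. Rps2 differed by 0.37 ± 0.27, Rps27 by -0.18 ± 0.18, Rpl18 by -0.32 ± 0.36 and Rplp0 by 0.19 ± 0.26. Rpl13a at 0.20 ± 0.25 and Rps15 at -0.37 ± 0.61 also kept their sign with either array turned, whereas Rpl7 at 0.31 ± 0.39 became -0.36 with array 2 turned. The median of all members was 0.062, with 15 below 0 and 17 above, where 52.8% of all probes were below 0. It was 0.37 or -0.58 with day 2 array 1 or 2 turned, 0.47 without day 2 array 1 (27 above 0) and -0.34 without day 2 array 2 (24 below 0).

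The members' median spread between arrays was larger than that of all probes, most of which are dimmer. It was not compared with the spread of probes of like brightness, so the part of brightness in it was not tested. The median SD over the 3 day 2 arrays was 0.75 for members and 0.34 for all probes, and over day 4 arrays 2 and 3 it was 0.28 and 0.21. The median SE was 0.31 for tested members and 0.17 for all probes at day 2, and 0.37 and 0.19 at day 4. Both ages share the fit's spread, so that the day 4 SEs also carry the opposed day 2 arrays. They are no separate measure of the spread at day 4. Within an array the 4 repeat values of a member were close, with median SDs of 0.12 to 0.23, so that the spread lay between arrays.

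Further probes of the same name allow a check within an array. Over 98 pairs of a brightest and another probe on an array, 78 had the same sign (79.6%), and the median absolute difference was 0.28. On day 2 array 1 it was 0.54 with 15 of 21 pairs of the same sign, and on day 4 array 3 it was 0.095 with 11 of 14. Rpl8 disagreed most, with -0.48, 0.012 and -0.43 at day 2 on its brightest probe and 2.01, -1.24 and -0.69 on the other. On day 4 arrays 2 and 3 its brightest probe read -0.35 and -0.052 and the other 0.39 and -0.11. The day 4 means were -0.20 and 0.14. The dimmer Rpl30 probe read -0.62, -0.60 and -0.48 at day 2 and -0.28, -0.13 and 0.075 at day 4, without the swing of the brightest one. The second Rpl23 probe read 0.48, -1.52 and -0.73 at day 2, and the second Rpl3 probe 0.11, 0.051 and 0.31 at day 2 and 0.21 on day 4 array 2. Ribosomal protein genes have many near-identical processed copies, which a cDNA clone does not tell apart.

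**Figure D5:**
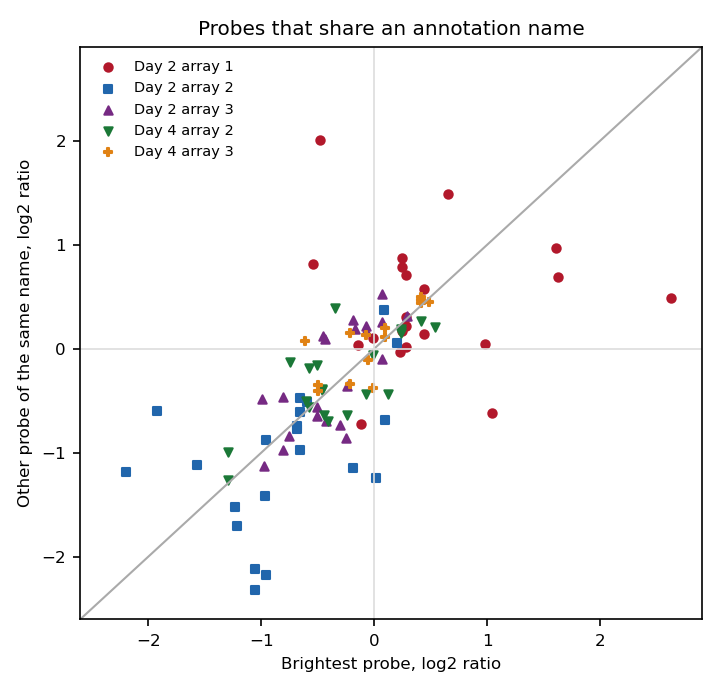
Each point sets the log2 ratio of the brightest probe of a name (horizontal axis) against that of another probe of the same name (vertical axis) on one array, and the grey line marks equal values. The 98 pairs follow the line loosely, and the points of day 2 array 1 (red circles) lie farthest from it, among them the Rpl8 pair at -0.48 and 2.01.

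Other genes of translation showed no called change either (limma, adjusted p under 0.05, either direction, both ages). For the counts below, 50.2% of all probes had a day 4 mean below 0. Of 19 mitochondrial ribosomal proteins, which build the separate ribosome of mitochondria, 15 were below 0 at day 4 with a median of -0.15. L49 had the smallest p-value among them at day 4 (-0.53 ± 0.15, limma, unadjusted p = 0.014). Of 18 translation initiation factors, 13 were below 0 at day 4 with a median of -0.35, and subunit 6 of factor 3 and the cap-binding factor 4E were at -0.80 ± 0.28 and -0.54 ± 0.20. At day 2 the helicases 4A2 and 4A1 were at -0.68 ± 0.23 and -0.76 ± 0.30, but with array 1 turned 4A1 was at 0.11, and with array 2 turned 4A2 was at -0.0054. Of 5 nucleolar genes of ribosome assembly, 4 were below 0 at day 4 with a median of -0.19. The 3 kinases of ribosomal protein S6, which are signalling enzymes, were also below 0, with a median of -0.13. Fibrillarin, which methylates ribosomal RNA, was at -0.44 ± 0.14 at day 2 and -0.36 ± 0.14 at day 4 (limma, unadjusted p = 0.021 and 0.043), and its day 2 value was -0.14 or -0.20 with array 1 or 2 turned. Of 2 elongation factors 1 was tested, the delta subunit of factor 1, at -0.30 ± 0.13 at day 4, and the other, factor 1 alpha 1, read 1.18 on day 4 array 2, its one day 4 value.

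The tissue label was checked against marker genes. All 5 oocyte markers measured were above 0 at day 4, with a median of 2.39, and the oocyte-specific H1 histone passed the test (2.39, limma, adjusted p = 0.0086). Gdf9, an oocyte growth factor, read -0.45, 2.49 and 1.86 at day 2 and 3.31, 3.42 and 3.42 at day 4. All 5 erythroid markers had a day 4 mean below 0, with a median of -0.88, and none passed the test. On day 2 array 2 the erythroid median was 1.29, against -0.24 and -0.26 on arrays 1 and 3, and the smooth muscle median was 0.84, against -0.24 and 0.29. The part of cell composition in the members' low values on that array was not tested. The smooth muscle markers (5 genes) had a day 4 median of 0.50, the steroidogenic markers (3) 0.52, the granulosa marker (1) 0.33, the endothelial markers (2) -0.22 and the leukocyte marker (1) -0.45.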

How the data were processed

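Gene expression in ovary was measured on 6 spotted 2-colour arrays, 3 per age. Per the file headers, every array file of the authors gives 4 repeat log2 ratios a probe (later day in Cy5 over day 0 in Cy3), their mean and a mean log2 intensity, and other columns hold flags that the authors' headers do not define. Per the submitters' processing notes R 1.7.1 was used, and how background was corrected and arrays were normalized is not given in the sources used here. Medians were near 0 on every array. The mean of the 4 repeats was used without further normalization.

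A probe was tested with values on at least 2 arrays of each age (8135 of 8272). One mean per age was fitted to all 6 arrays with limma 3.58.1 (R 4.3.3, moderated variances, 2.03 prior degrees of freedom, 2-sided), with Benjamini-Hochberg adjustment over all tested probes and a threshold of 0.05. SEs come from that fit, which uses only the arrays with a value, and both ages share its spread. With 3 arrays per age, their number limits the precision. The code was tested on simulated data.

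The members and lists were chosen with earlier results of these data known. Members were named with per-array values if they were among the 10 smallest p-values of the members in a comparison, had one of the 4 largest or 4 smallest SDs, or were on a list by role. The other members are given by range, and 2 members enter the counts and medians but are not reported singly here. Means and SEs are given for those 10 per comparison. Alternatives were other scalings, loess, the authors' deposited mean log2 table, the median of repeats, flags, dim probes, turned signs, variance settings, left-out arrays and all probes of a name. Replicate numbers of both ages were checked for pairing: deviations from the group means correlated at 0.365, 0.053 and 0.515 for numbers 1, 2 and 3, and the second was under 0.1, so that the arrays were not treated as paired.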

Additional observations from a re-analysis of the deposited data

How the results depend on the processing

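No member was called in any of the 3 comparisons under any alternative that could be run, but some alternatives left few members to test. There was 1 of 23 without day 4 array 2. There were 4 without day 4 array 3, and also 4 without the arrays that share a day 0 RNA. With flagged values left out 18 were tested, and Rpl3, Rpl5 and Rpl32 were among those that were not. The 39 probes called at day 4 against day 0 (39 higher, 0 lower) became 96 with scale normalization (88 higher, 8 lower), 126 with trend and robust variances (117 and 9), 166 with each age fitted alone (133 and 33), 0 once day 2 array 2 had its sign turned, 0 without the arrays that share a day 0 RNA, and 0 to 71 when each array was left out. They were 71 without day 2 array 1, 16 without day 2 array 3 and 0 without any one of the day 4 arrays, which also lowers the number of probes tested. At day 4 against day 2, trend and robust variances called 1 probe. The day 4 median of the members stayed below 0 in all alternatives (-0.40 to -0.074, the latter over 23 members). Alternatives of the day 2 arrays or of the variance settings cannot move it. The day 4 against day 2 median became -0.15 with scale normalization, and ranged from -0.34 to 0.47 when each array was left out.

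Of 449 alternatives of the 30 fitted member values, 439 kept their direction and 10 changed sign, in 8 values, all through day 2 arrays 1 and 2. Many of the 439 could not have changed, so that their number is no measure of robustness. A day 4 mean does not depend on the day 2 arrays, nor a day 2 mean on the day 4 arrays. Variance settings, and fitting each age alone, leave every mean as it is. With array 1 turned, Rpl8 at day 2 became 0.02193. With array 2 turned, the day 2 values became 0.1829 (Rpl18), 0.0004038 (Rpl7), -0.01382 (Rps27), 0.05255 (Rpl15), 0.6575 (Rpl30) and 0.5566 (Rpl32), and Rpl7 at day 4 against day 2 became -0.3563. With each array left out, Rpl30 at day 2 ranged from -1.46 to 0.02463 and Rpl32 from -0.9493 to 0.027, the highest without array 2 and the lowest without array 1.

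With the replicate number as a block, 0 probes and 0 members were called at day 4 against day 2, as without it. The members' median was 0.47, with 27 above 0 and 5 below, against 17 and 15. The block uses a number only where both of its arrays have a value. The 28 members without a value on day 4 array 1 therefore also lost day 2 array 1. Leaving out day 2 array 1 without a block likewise gave 0.47, with 27 above 0 and 5 below. Arrays numbered 3 share a day 0 RNA, and arrays numbered 1 and 3 correlated best with their own number. Day 4 array 2 correlated best with day 2 array 1 (0.091), so that not every number paired its arrays. Leaving out day 2 arrays 1 and 2 together, an alternative chosen after seeing the data, leaves 1 day 2 array: the members' medians were then -0.39 at day 2 and 0.16 at day 4 against day 2, without a test. Beyond the values that the block drops, the cause of these changes was not tested.

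Missing values on day 4 arrays 1 and 3 left 9 members untested and 22 with 2 day 4 values.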
